A study of Mus musculus with 3 samples.

Results

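Pericytes, the mural cells of capillaries, were picked out of single-cell RNA profiles of the arcuate nucleus, a hypothalamic centre of appetite control. A barcode was taken as a pericyte when at least 3 of the genes Vtn, Kcnj8, Higd1b, Atp13a5 and Abcc9 were detected and their summed count was at least 5 unique molecular identifiers (UMIs, each marking 1 captured transcript). That sum also had to exceed the sum of the endothelial genes Cldn5, Flt1, Ly6c1, Itm2a and Slco1a4, and the smooth muscle genes Acta2, Myh11 and Tagln had to sum to fewer than 10 UMIs. Barcodes had to show 500 or more genes and no more than 20% mitochondrial UMIs. The cells were thus chosen by the counts of these 13 genes in the same libraries that are described. The rule found 393 pericytes among 14869 kept barcodes.

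The mice were male C57BL/6JRj animals, 5 to 6 weeks old, and nothing in the labels described a transgene or drug. One group ate standard chow (SC) for 15 days from weaning. The second was moved after 10 days of chow to food high in fat and sugar (HFHS) for 5 days (5-day), and the third ate only HFHS food for those 15 days (15-day). Micropunches from 6 mice were pooled per group and enzymatically dissociated before droplet capture, so there was 1 library per diet and no replicate of any diet. Diet, pool, dissociation and library therefore cannot be told apart. The libraries held 147 of 5116 (SC), 113 of 4252 (5-day) and 133 of 5501 (15-day) kept barcodes as pericytes, with 890328, 731579 and 547437 UMIs in them. A pericyte had a median of 4223, 4564 and 2914 UMIs and 2124, 2167 and 1564 detected genes, in the order SC, 5-day and 15-day, which is kept for all triples of values that follow. The 15-day pericytes were the shallowest, as were the 15-day barcodes as a whole, with medians of 5212, 5801.5 and 4172 UMIs.

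Pericytes lie inside the basement membrane they share with capillary endothelium. Endothelial cells recruit them by secreting platelet-derived growth factor B, which acts on the receptor PDGFRB on the pericyte, and pericytes in turn help to keep the blood-brain barrier closed and contribute to the control of capillary flow. Brain pericytes are known for an ATP-sensitive potassium channel made of a pore subunit encoded by Kcnj8 and a sulfonylurea-receptor subunit encoded by Abcc9, which closes when cellular ATP is high. In the arcuate nucleus and the adjoining median eminence, capillaries are the entry point for circulating nutrients and hormones.

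The genes of both channel subunits are neighbours. In GRCm38, Abcc9 lies on the minus strand at chr6:142587862-142702315 and Kcnj8, also on the minus strand, at chr6:142564837-142571614, with 16247 bases between them. Both were used to choose the pericytes, so their shared presence is given by the rule in part, and their start regions are shown because they belong to 1 channel made in 1 cell type. The 250 bases before each RefSeq start (GRCm38.p6, minus strand, 5′ to 3′, chr6:142571615-142571864 for Kcnj8 and chr6:142702275-142702524 for Abcc9) read as follows, with TGGGAA, the core of the RBPJ motif through which Notch signals, in capitals.
Kcnj8: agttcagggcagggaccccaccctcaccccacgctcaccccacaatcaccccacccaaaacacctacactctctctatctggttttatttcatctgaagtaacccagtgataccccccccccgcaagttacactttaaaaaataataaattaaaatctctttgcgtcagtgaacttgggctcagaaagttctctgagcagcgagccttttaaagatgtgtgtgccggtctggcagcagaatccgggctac
Abcc9: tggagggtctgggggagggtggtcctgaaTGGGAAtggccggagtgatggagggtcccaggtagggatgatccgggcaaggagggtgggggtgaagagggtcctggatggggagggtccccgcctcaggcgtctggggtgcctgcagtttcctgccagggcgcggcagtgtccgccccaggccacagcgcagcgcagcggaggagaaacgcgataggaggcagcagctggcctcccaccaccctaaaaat
Of 6 motifs searched on both strands, TGGGAA was in the Abcc9 window once and in 21.6% of 32851 promoters, and GGGCGG, the GC box, was in the Abcc9 window once and in 32.7% of promoters. GCGTG, a hypoxia response core, was in the Kcnj8 window once and in 28.2% of promoters. The other hypoxia core ACGTG, the forkhead core TGTTTAC and the T-box core GGTGTGA were in neither window and in 16.6%, 3.17% and 3.33% of promoters. No motif was in both windows, and the motifs that matched are common ones.

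The genes that chose the cells are given as a description. Levels are UMIs summed over the pericytes of a library, per 1000000 UMIs in them (CPM). Vtn, which encodes the adhesive glycoprotein vitronectin, was at 14361, 14940.3 and 12449 CPM and was detected in every pericyte, with a median of 83, 93 and 48 UMIs per cell. Kcnj8 was at 945, 1018 and 837 CPM and Abcc9 at 544, 600.1 and 676 CPM. Vtn and Kcnj8 were lowest in the 15-day library, whereas Abcc9 was highest there. Without barcodes in which another cell type's markers exceeded the pericyte sum, Abcc9 was at 786, 862 and 854 CPM, highest in the 5-day library. Vtn and Kcnj8 were lowest in the 15-day library without them too. Higd1b, a gene of the hypoxia-inducible mitochondrial HIG1 family, was at 1317, 1297 and 1271 CPM, and Atp13a5, a P-type ATPase, at 846, 891 and 759.9 CPM. In endothelial cells the same 5 genes reached at most 646 CPM (Vtn, 15-day).

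All 5 markers were detected in 105, 88 and 75 pericytes, 4 in 25, 15 and 34, and 3 in 17, 10 and 24. The median marker sum was 106, 119 and 62 UMIs, with a lowest of 6, 6 and 5 and a highest of 370, 334 and 295. Few cells stood at the lower limit: 7, 3 and 6 pericytes had a sum of 5 to 9 UMIs, and 1, 1 and 2 barcodes that met the other limits had a sum of 3 or 4. The smooth muscle sum was 0 in 114, 93 and 108 pericytes and 5 to 9 in 3, 1 and 1, while 15, 9 and 6 barcodes stayed outside because it was 10 or more. A further 54, 36 and 49 barcodes stayed outside because their endothelial sum was the larger or equal.

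**Figure D1:**
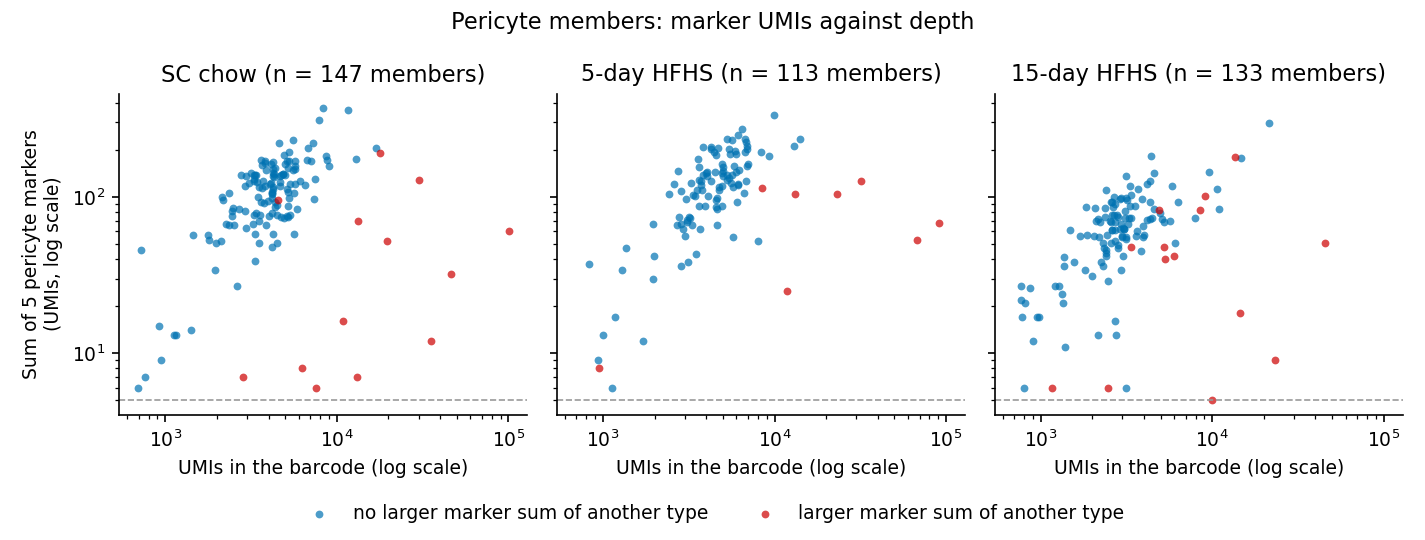
Each point is 1 pericyte, with its total UMIs and the summed UMIs of the 5 marker genes of the rule, both on log axes, by diet, and the dashed line marks a sum of 5. Cells in which another cell type's marker sum was larger (13, 8 and 14 cells) are drawn in red and lie toward high total UMIs.

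The label held for most but not all of these barcodes. In 13, 8 and 14 of them the summed markers of another cell type exceeded the pericyte sum, most often those of neurons (7, 2 and 7 barcodes), oligodendrocytes (4, 5 and 5) or astrocytes (6, 0 and 6). These mixed barcodes were deep, with a median of 13265, 18158.5 and 7214.5 UMIs against 4206.5, 4475 and 2773 in the unmixed ones, and held 34.7%, 34.0% and 27.9% of all pericyte UMIs. Scrublet doublet scores put 5, 3 and 9 of them among the highest-scoring barcodes. Red blood cell markers (5 genes) summed to 16289.5, 88.8 and 91.3 CPM over all pericytes and to 25.8, 126 and 22.8 CPM over the unmixed ones, and neuron markers (12 genes) to 3877, 8070.2 and 3049 CPM over all and 899, 754 and 1026 CPM over unmixed ones. Leptomeningeal fibroblast markers (12 genes) summed to 2197, 3492 and 2998 CPM over all and 3144, 3220.4 and 3677 CPM over unmixed pericytes. Smooth muscle markers (10 genes, of which 3, 2 and 3 were at 0) summed to 499.8, 444 and 535 CPM over all pericytes. Endothelial markers (16 genes) did not drop in the same way, at 3134, 2585 and 4417 CPM over all and 4122, 3668 and 5699 CPM over unmixed pericytes, highest in the 15-day library both times. They were not used to define mixed barcodes, so a barcode with an endothelial sum just below its pericyte sum could stay unmixed. In 8, 2 and 7 pericytes, mixed ones counted, 2 times the endothelial sum of the rule exceeded the pericyte sum. Results that follow use all 393 barcodes unless said otherwise. The counts of genes that differ between diets are also given without the 35 mixed ones, as are the values of some single genes. Between the 5-day and 15-day libraries 85 barcode sequences were shared, between 15-day and SC 72 and between 5-day and SC 13. They included 2 pericytes of 5-day and 1 of SC, and no barcode was a pericyte in both libraries.

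Set against endothelial cells (487, 454 and 536 barcodes), pericytes carried the known mural programme, metabolic and receptor genes included. Of 12651 genes tested, 1304 were higher (10.3%) and 1595 lower (12.6%) in pericytes with edgeR's quasi-likelihood test, libraries as a block and Benjamini-Hochberg adjusted p below 0.05. With mixed barcodes left out of both cell types, 2027 of 10438 genes were higher (19.4%) and 2306 lower (41.5% in all). The test asks only whether a difference exceeded the spread over the 3 pooled libraries. The barcodes were separated by marker counts to begin with, so genes that go with either marker set differ by construction and their fold changes are a description of the cells. Of 30 tested genes of a pericyte identity list without the rule's genes, 28 were higher and none lower, with a median log2 fold change of 3.95 beside 0.03 over all genes.

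Receptors that receive endothelial signals were among them. Pdgfrb, the receptor for platelet-derived growth factor B, was at 1112, 1241 and 1118 CPM in pericytes and at 48.03, 41.5 and 69.8 CPM in endothelial cells, a log2 fold change of 4.37 ± 0.21 (SE, edgeR adjusted p = 1.56e-06). Notch3, the mural Notch receptor, averaged 417 ± 32.7 CPM in pericytes and 19.9 ± 6 CPM in endothelial cells (SD over 3 libraries, as in all means that follow). Pericyte and endothelial libraries did not overlap for either gene. Cspg4, the NG2 proteoglycan, averaged 399 ± 39.8 CPM in pericytes and 28.3 ± 4.74 CPM in endothelial cells, and Rgs5, which curbs G-protein signalling, 4414 ± 241 CPM in pericytes and 552 ± 45.3 CPM in endothelial cells, log2 fold changes of 3.71 and 2.89. Among 35 tested genes of PDGF, TGF-beta, Notch and angiopoietin signalling, 10 were higher and 14 lower in pericytes. The lower ones included the endothelial angiopoietin receptor Tek, at 12.7 ± 6.85 CPM in pericytes and 218 ± 31.3 CPM in endothelial cells.

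P2ry14, the receptor for UDP-glucose (chr3:59113855-59153618), was at 793, 925 and 736 CPM in pericytes and 29.6, 24.9 and 37.9 CPM in endothelial cells, a log2 fold change of 4.64 ± 0.20 (edgeR adjusted p = 1.21e-06). A UMI of P2ry14 was present in 92.5, 93.8 and 89.5% of pericytes. Every pericyte library stood above every endothelial library. Enpep, the aminopeptidase that trims angiotensin II, averaged 227 ± 29.3 CPM in pericytes and 8.62 ± 0.831 CPM in endothelial cells. Art3, of the ADP-ribosyltransferase family, averaged 380.0 ± 22.7 CPM in pericytes and 16.8 ± 3.32 CPM in endothelial cells.

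Solute carriers formed a second block. Of 20 tested solute carriers and ATPases listed for pericytes, 14 were higher and 4 lower than in endothelial cells, with a median log2 fold change of 2.96. Slc6a20a, a transporter of proline and other imino acids, was at 581, 606 and 433 CPM in pericytes and 19.01, 19.1 and 20.6 CPM in endothelial cells (log2 fold change 4.67 ± 0.17, edgeR adjusted p = 1.17e-06). Slc6a13, which takes up GABA and taurine, averaged 160.2 ± 33.9 CPM in pericytes and 6.57 ± 3.99 CPM in endothelial cells, and Slc38a11, of an amino acid transporter family, 290.4 ± 9.09 CPM in pericytes and 10.3 ± 1.43 CPM in endothelial cells. Slc19a1, the reduced folate carrier, averaged 520.1 ± 79.1 CPM in pericytes and 21.3 ± 2.25 CPM in endothelial cells, and Slc30a10, a manganese exporter, 239.7 ± 3.51 CPM in pericytes and 13.6 ± 2.48 CPM in endothelial cells. For all 5 carriers the pericyte libraries lay above the endothelial ones. Slc2a1, the glucose transporter of the barrier endothelium, went the other way, at 162 ± 42.98 CPM in pericytes and 1911 ± 435 CPM in endothelial cells.

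The other genes that the naming rule picked as most raised over endothelium were Carmn, a long noncoding RNA of mural cells (219 ± 38.1 CPM in pericytes and 5.25 ± 0.984 CPM in endothelial cells), the matrix genes Ogn (log2 fold change 4.99), Aspn (4.54) and Pcolce (4.5), the small GTPase gene Rem1 (4.56) and the interferon-inducible membrane protein gene Ifitm1. Ifitm1 was at 923, 1024 and 964 CPM in pericytes and 35.3, 29.5 and 54.3 CPM in endothelial cells. It stood against its list, since of 29 interferon and MHC class I genes tested 2 were higher and 23 lower in pericytes, among them Ly6e (143 ± 53.4 CPM in pericytes and 1546 ± 121 CPM in endothelial cells) and the class I genes B2m (log2 fold change -1.38) and H2-D1 (-1.42). The most reduced genes were endothelial: the transcription factor Sox17 (-4.94), the junction cadherin Cdh5 (-4.54), the efflux pump Abcb1a (-4.42), Cavin2 (-4.68), Cyyr1 (-4.57), Srarp (-4.83), Grasp (-4.49), fibronectin Fn1 (-4.42) and Ly6a (-4.38). The haemoglobin genes Hbb-bs, Hba-a1 and Hba-a2 completed that set, and in SC pericytes their UMIs came from mixed barcodes almost wholly.

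**Figure D2:**
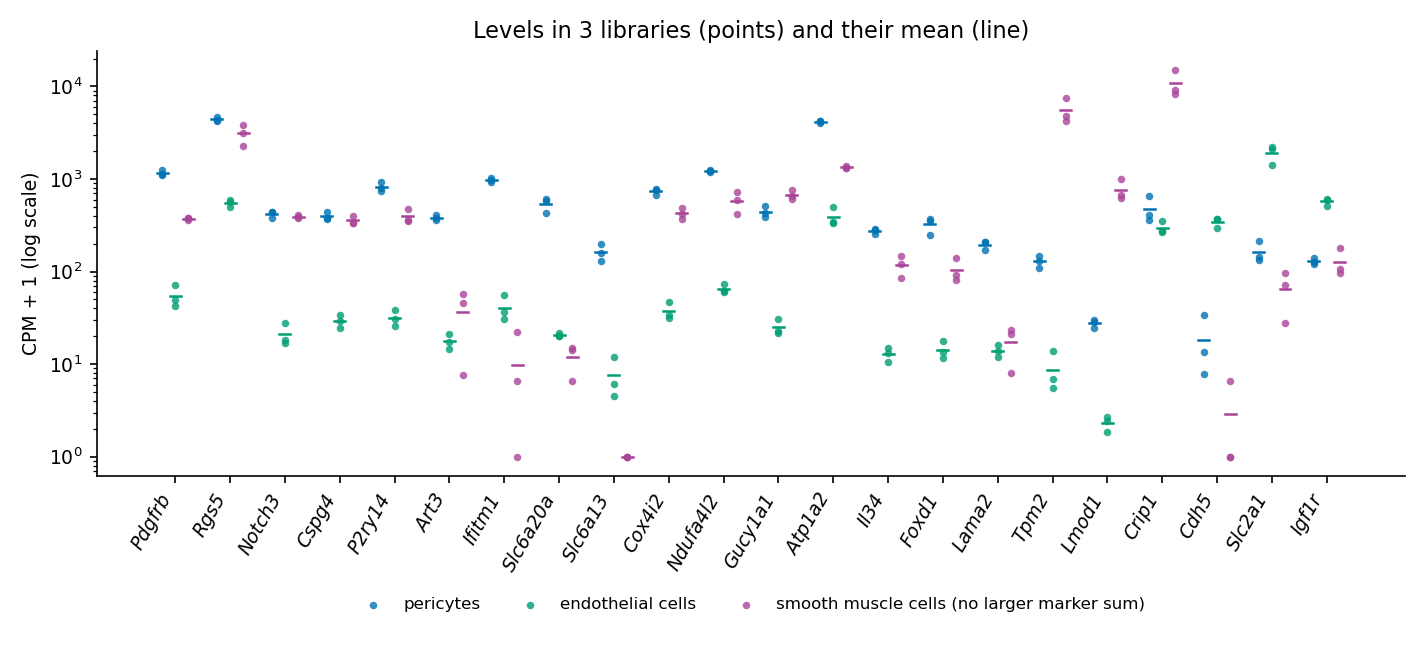
CPM plus 1 on a log axis for named genes in pericytes, endothelial cells and smooth muscle cells, with 1 point per library and a line at the mean. Pericyte points lie above endothelial points for Pdgfrb, P2ry14, Slc6a20a and Ndufa4l2, and smooth muscle points lie above pericyte points for Tpm2.

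A pair of respiratory chain genes known for isoforms of oxygen-sensing or hypoxic cells were strongly pericytic. The list of such isoforms as a whole was not. Of its 10 tested genes 2 were higher and 2 lower than in endothelium, with a median log2 fold change of -0.01. Cox4i2 (chr2:152754173-152765037), the inducible isoform of cytochrome c oxidase subunit IV, was at 777, 763 and 674 CPM in pericytes and 33.3, 30.4 and 46.2 CPM in endothelial cells (log2 fold change 4.25 ± 0.19, edgeR adjusted p = 1.38e-06). Ndufa4l2 (chr10:127514967-127517154), a hypoxia-inducible relative of Ndufa4, was at 1233, 1249 and 1191 CPM in pericytes and 60.3, 59.4 and 72.6 CPM in endothelial cells (log2 fold change 4.15 ± 0.17, edgeR adjusted p = 1.17e-06). The pericyte libraries were within a narrow band and far above endothelium for both. Cox4i1, the common isoform, averaged 834 ± 119.7 CPM in pericytes and 833 ± 181 CPM in endothelial cells and did not pass the test (edgeR adjusted p = 0.737). Ndufa4 was lower, at 194 ± 111 CPM in pericytes and 588 ± 82.5 CPM in endothelial cells. Of 63 nuclear respiratory chain genes 4 were higher and 3 lower, with a median log2 fold change of 0.04. Without mixed barcodes 21 of them were higher and 7 lower, with a median of 0.17, beside 19.4% higher over all genes in that fit.

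Expressed as a share of the UMIs of the isoform pair, Cox4i2 made up 48.7, 51.3 and 41.2% in pericytes, against 25.2, 20.9 and 22.3% in smooth muscle cells and 4.27, 4.1 and 4.25% in endothelial cells. Ndufa4l2 made up 87.9, 92.8 and 79.1% of its pair with Ndufa4 in pericytes, 52.9, 50 and 48.1% in smooth muscle cells and 10.1, 9.83 and 9.603% in endothelial cells. Pericytes had the highest share in every library for both pairs. Without mixed barcodes the pericyte shares were 57.4, 56.7 and 47.6% for Cox4i2 and 95.5, 95.6 and 87.6% for Ndufa4l2. In each of these 4 sets of pericyte shares the 15-day library had the lowest pericyte share. In microglia, which are not known to use these isoforms, the shares were 0.5497, 0.4696 and 0.483% and 0.956, 0.442 and 1.02%. The shares are compared between cell types, and they are not a ratio of transcript numbers because capture can differ between genes.

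**Figure D3:**
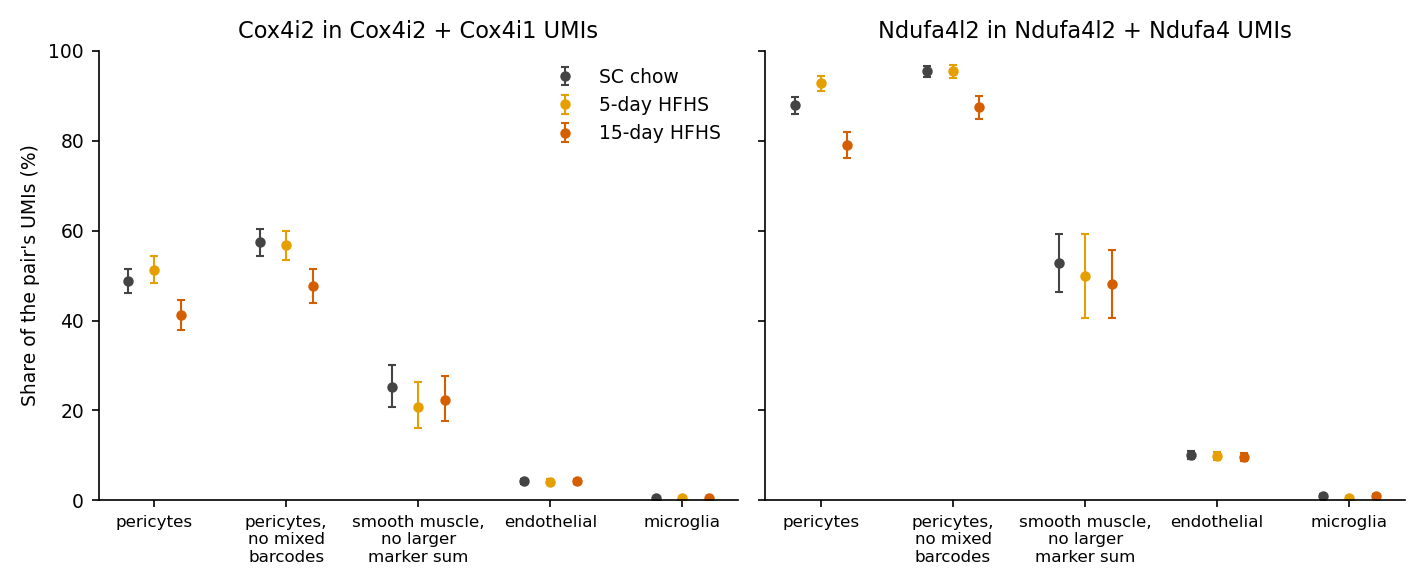
Share of the UMIs of a gene pair that came from Cox4i2 (with Cox4i1) and Ndufa4l2 (with Ndufa4), in percent, by cell type and diet, with exact 95% binomial intervals that cover counting error only. Pericytes stand highest in each library, smooth muscle cells between, and endothelial cells and microglia lowest.

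Genes for vasoactive signals were mostly raised. Of 26 tested receptors and cyclic nucleotide genes, 16 were higher and 6 lower than in endothelium, with a median log2 fold change of 2.10. The subunits of soluble guanylate cyclase, the receptor for nitric oxide, were both among them. Gucy1a1 averaged 443 ± 61.8 CPM in pericytes and 24.01 ± 4.705 CPM in endothelial cells, and Gucy1b1 602 ± 53.6 CPM in pericytes and 33.6 ± 5.75 CPM in endothelial cells. Endothelin receptor Ednra averaged 144 ± 11.8 CPM in pericytes and 9.63 ± 0.728 CPM in endothelial cells, thromboxane receptor Tbxa2r 187 ± 12.9 CPM in pericytes and 23.4 ± 2.61 CPM in endothelial cells, and adenosine receptor Adora2a 94.96 ± 14.4 CPM in pericytes and 7.67 ± 1.03 CPM in endothelial cells. The sphingosine phosphate receptor S1pr3 and the estrogen-responsive receptor Gper1 had log2 fold changes of 3.35 and 3.87. All 7 genes passed the edgeR test. Of 26 ion channel genes 11 were higher and 5 lower, with the calcium-activated chloride channel Ano1 (121 ± 16.2 CPM in pericytes and 5.44 ± 1.17 CPM in endothelial cells) and the cation channel Trpc4 (log2 fold change 3.48) among the higher ones.

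Matrix genes and transcription factors of the mural lineage followed. Of 39 basement membrane and matrix genes 22 were higher and 6 lower than in endothelium. Markers of leptomeningeal fibroblasts, some of which are also on the matrix list, moved with them, with 7 of 10 tested higher and none lower (median log2 fold change 2.97, and 3.38 without mixed barcodes). The part of fibroblast RNA in the matrix values was not tested. The laminin chain Lama2 averaged 195 ± 21.8 CPM in pericytes and 12.98 ± 2.08 CPM in endothelial cells, nidogen Nid1 482 ± 22.9 CPM in pericytes and 80.4 ± 8.75 CPM in endothelial cells, and collagen Col4a1 871 ± 7.85 CPM in pericytes and 513 ± 37.1 CPM in endothelial cells. The log2 fold changes were 3.8, 2.48 and 0.66, the smallest of them for the collagen chain. Forkhead factor Foxd1 averaged 323 ± 65.7 CPM in pericytes and 13.3 ± 3.12 CPM in endothelial cells, Tbx18 34.7 ± 8.36 CPM in pericytes and 1.69 ± 0.0293 CPM in endothelial cells, and Zic1 327 ± 31.5 CPM in pericytes and 18.1 ± 3.999 CPM in endothelial cells. Foxf2 did not pass, at 78.1 ± 9.44 CPM in pericytes and 80.6 ± 11 CPM in endothelial cells (edgeR adjusted p = 0.523). Il34, a ligand of the microglial receptor CSF1R, averaged 273 ± 15.1 CPM in pericytes and 11.9 ± 2.24 CPM in endothelial cells, whereas the chemokine gene Cxcl12 was lower, at 429 ± 104 CPM in pericytes and 2138 ± 51.5 CPM in endothelial cells.

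Hormone receptor genes ranged in pericytes from a few UMIs in all to most cells. Of 23 tested genes of feeding and endocrine hormone reception 2 were higher and 8 lower than in endothelium, beside 10.3% higher and 12.6% lower over all genes. Lepr, the leptin receptor, had a UMI in 2.04, 0.885 and 2.26% of pericytes (3, 1 and 3 cells), in 0.426, 0.632 and 0.446% of microglia, which are used here as a level of free RNA, and in 17.9, 15.4 and 11.9% of endothelial cells. The exact 95% intervals in pericytes (0.423 to 5.85%, 0.0224 to 4.83%, 0.468 to 6.45%) overlapped those in microglia in each library. The pericyte share was above the microglial one each time, but from 3, 1 and 3 cells. Whether Lepr lay above free RNA was not tested, and overlap of intervals from so few cells cannot decide it. The median depth was 5576, 5451 and 5602.5 UMIs in microglia and 9643, 8128.5 and 5767.5 in endothelial cells, deeper than in pericytes. Gipr, the receptor for the gut hormone GIP, had a UMI in 5.44, 10.6 and 4.51% of pericytes, against 0.205, 0.881 and 0.373% of the deeper endothelial cells and 0.142, 0.158 and 0.112% of microglia. Its levels, from 9, 16 and 6 UMIs in all, were 10.1, 21.9 and 10.96 CPM in pericytes and 0.429, 0.664 and 0.426 CPM in endothelial cells (log2 fold change 4.58 ± 0.50, edgeR adjusted p = 0.000138), and the pericyte libraries lay above the endothelial ones. Insr, the insulin receptor, averaged 45.8 ± 12.1 CPM in pericytes and 120.3 ± 13.1 CPM in endothelial cells, and Igf1r 128 ± 9.52 CPM in pericytes and 570.5 ± 54.4 CPM in endothelial cells; both were lower in pericytes. Thra, a thyroid hormone receptor, averaged 321 ± 23.2 CPM in pericytes and 251 ± 19.7 CPM in endothelial cells and did not pass (edgeR adjusted p = 0.262). It had a UMI in 71.4, 76.1 and 64.7% of pericytes, against 24.7, 25.8 and 36.2% of microglia.

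The smooth muscle rule, an Acta2, Myh11 and Tagln sum of 10 or more, found 85, 69 and 82 barcodes, but in 61, 55 and 57 of them another cell type's markers were higher, mostly those of ependymal cells. Over that set 2366 of 11133 genes were higher (21.3%) and 2640 lower (23.7%) in pericytes. The lower end was led by genes of ciliated or other non-mural cells (Stoml3, Tmem212, Ccdc153, Spag17, Tctex1d4, Cdhr4, Fam166c, Crygn, C3, Cd24a, Col6a5 and Lbp), and the higher end by Slc6a13, Col3a1, Nodal, Slc22a8, Slc6a20a, Pla1a, Ifitm1, Ggt1, Emcn, Cthrc1 and Arhgdib. That set goes against its label, and smooth muscle cells are therefore the 24, 14 and 25 barcodes whose contractile sum was larger than any other marker sum, a choice made after the data were seen. Set against them, all pericytes had 497 of 6287 genes higher (7.91%) and 740 lower (11.8%). With mixed barcodes also left out of the pericytes, 554 of 5103 genes were higher (10.9%) and 661 lower (23.8% in all), and the log2 fold changes in the next paragraphs are from that fit.

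Contractile genes were lower in pericytes than in smooth muscle cells. Of 22 tested contractile genes none was higher and 18 were lower in pericytes, with a median log2 fold change of -2.71, while the rule itself had removed cells rich in 3 such genes. Tpm2, a tropomyosin, averaged 180.0 ± 27.5 CPM in unmixed pericytes and 5497 ± 1716 CPM in smooth muscle cells (log2 fold change -5.09 ± 0.22, edgeR adjusted p = 3.1e-09). Myl9, a myosin light chain, averaged 2094 ± 65.8 CPM in unmixed pericytes and 7455 ± 1187 CPM in smooth muscle cells, Mylk, its kinase, 354 ± 24.02 CPM in unmixed pericytes and 1957 ± 356 CPM in smooth muscle cells, and Lmod1 37.1 ± 3.79 CPM in unmixed pericytes and 767 ± 202 CPM in smooth muscle cells. Pericytes were not devoid of these transcripts, and Myl9 stood above endothelial cells (82.3 ± 21.8 CPM). Cald1, which encodes an actin-binding regulator of contraction, averaged 3596 ± 248 CPM in unmixed pericytes and 2596 ± 350.4 CPM in smooth muscle cells and had a log2 fold change of 0.26 (edgeR adjusted p = 0.24). Pde3a, a cyclic nucleotide phosphodiesterase, was lower, at 65.8 ± 19.7 CPM in unmixed pericytes and 619 ± 96.6 CPM in smooth muscle cells (log2 fold change -3.44).

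Other genes separated the pair of mural cell types in the opposite direction. Ifitm1 averaged 1363 ± 109 CPM in unmixed pericytes and 8.86 ± 10.9 CPM in smooth muscle cells (log2 fold change 7.06 ± 0.36, edgeR adjusted p = 1.08e-08). Slc6a20a averaged 756 ± 165 CPM in unmixed pericytes and 10.98 ± 4.66 CPM in smooth muscle cells (log2 fold change 5.9 ± 0.32, edgeR adjusted p = 2.07e-08), Art3 534 ± 65.3 CPM in unmixed pericytes and 35.8 ± 25.9 CPM in smooth muscle cells and Slc30a10 325 ± 30.2 CPM in unmixed pericytes and 19.03 ± 11.1 CPM in smooth muscle cells. In each of these genes all pericyte libraries lay above all smooth muscle libraries. Slc6a13, Pla1a (a phospholipase of phosphatidylserine) and Ggt1 (a glutathione-cleaving enzyme) had no UMI in smooth muscle cells. Against a floor of 3 UMIs over the 3 smooth muscle libraries over all pericytes they were at least 25.6-fold, 21.1-fold and 27.8-fold higher. Col3a1, a fibrillar collagen gene, had 2 UMIs in smooth muscle cells. Its CPM ratio of all pericytes, mixed ones included, over smooth muscle cells was 44.97, with an exact 95% counting interval of 12.4 to 373. Col3a1 is also a leptomeningeal fibroblast marker, and the part of fibroblast RNA in this ratio was not tested. Identity genes were split rather than uniformly pericytic, with 20 of 30 higher, 3 lower and a median log2 fold change of 1.4. Pdgfrb was higher in pericytes (1.89), and Notch3 and Cspg4 did not pass (0.34 and 0.40, edgeR adjusted p = 0.173 and 0.146). Cox4i2 and Ndufa4l2 were higher in pericytes by 1.05 and 1.38, while of 63 nuclear respiratory chain genes none was higher and 41 were lower, with a median of -0.68. Of 8 tested genes of the list of oxygen-sensing isoforms 2 were higher and 5 lower, with a median of -0.75.

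Among themselves, unmixed pericytes were more even in Rgs5, Cox4i2 and P2ry14 than in a set of matrix, stress and barrier genes. Spread was measured as the variance of a gene's share of UMIs over cells beyond counting error, relative to its squared mean, and 684 genes with at least 200 CPM in every library were ranked by the lowest of their 3 values. The median was 0.056. Rgs5 had 0.287, 0.133 and 0.284, Cox4i2 0.171, 0.117 and 0.375 and P2ry14 0.146, 0.0922 and 0.269, above that median but below the genes that follow. Ogn, the matrix proteoglycan osteoglycin, had 1.69, 1.63 and 1.396. It was detected in 50, 46.7 and 41.2% of pericytes, and the 10% of cells richest in it held 51.5, 48.6 and 50% of its UMIs, against 26.5, 24.3 and 27.99% for Rgs5. Mgp, the matrix Gla protein, had 0.884, 0.988 and 1.498, Col3a1 0.835, 0.821 and 0.542, Cxcl12 6.58, 1.06 and 7.44 and the metallothionein Mt1 7.58, 1.01 and 2.85. In each library the values of Ogn, Mgp and Mt1 were above those of Rgs5.

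The first 3 genes of the ranking were genes of endothelium and not of pericytes. Cldn5 and Ly6c1, which the rule bounds, ranked 1 and 2, and Cldn5 was detected in 6.72, 5.71 and 8.403% of unmixed pericytes. Bsg, which encodes basigin and is abundant in barrier endothelium, ranked 3 with the richest 10% of cells holding 79.4, 80.9 and 84.2% of its UMIs. Mbp, an oligodendrocyte marker, ranked 4 with values of 4.55, 6.17 and 2.99, and Nnat ranked 6. Over all pericytes the endothelial sum of the rule was 0 in 106, 74 and 105 and over 2 UMIs in 14, 5 and 10. The genes in this and the last paragraph were chosen after their spread was seen, and the part of attached endothelial fragments or free RNA in them was not tested.

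The share of pericytes did not change detectably with diet. It was 2.87% (2.43 to 3.37%) of kept barcodes in SC, 2.66% (2.195 to 3.19%) in 5-day and 2.42% (2.03 to 2.86%) in 15-day, with exact 95% binomial intervals that cover counting error only. The log2 ratio was -0.11 (-0.48 to 0.25) for 5-day over SC and -0.25 (-0.60 to 0.10) for 15-day over SC. Both intervals include 0, and without replicate libraries no test across mice was possible.

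For single genes a size rule took the place of a test: at least 100 UMIs in both libraries together, at least 30 CPM in one, a CPM ratio of at least 1.5 and an exact conditional binomial 95% interval that stays beyond 0.32 on the log2 scale. Both HFHS comparisons share the SC library. After 5 days 124 of 3211 genes were higher (3.86%) and 114 lower (3.55%) than in SC, 7.41% in all. Without the mixed barcodes 1 of 2029 genes was higher (0.0493%) and 8 lower (0.394%), with 0 and 4 genes in both sets. Gpr17, a gene of committed oligodendrocyte precursors, was at 172 CPM in 5-day and 8.99 CPM in SC pericytes, but at 2.07 CPM in 5-day and 5.16 CPM in SC unmixed ones. Grin2b, a glutamate receptor subunit of neurons, was at 103 CPM in 5-day and 31.4 CPM in SC pericytes, and at 4.14 CPM in 5-day and 6.88 CPM in SC without mixed barcodes. The other named higher genes, Apod, Tnr, Bcas1, Phyhipl, Dnm3, Ptprn, Disp2 and Pcdh7, are also genes of oligodendrocyte lineage or neurons for the most part. Without mixed barcodes 9 of the 10 named higher genes fell short of 100 UMIs and could not pass the size rule, Tnr with 9 UMIs left (log2 ratio 3.27, interval 0.37 to 8.74) and Bcas1 with 32 (1.41, interval 0.27 to 2.65). Apod, the tenth, had a log2 ratio of 0.31 there. Of the named lower genes Hbb-bs, Hbb-bt, Hba-a1, Hba-a2, Crym, Thrsp, Nnat, Col23a1, Mia and S100a6, 9 likewise fell short of 100 UMIs, and Nnat was the exception. The paired haemoglobin genes are near-identical copies, and their separate counts are uncertain. Nnat was at 377 CPM in 5-day and 4605 CPM in SC pericytes, and at 429 CPM in 5-day and 426 CPM in SC unmixed ones.

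In unmixed pericytes the gene past the size rule in the higher direction after 5 days was Trim35, at 145 CPM in 5-day and 70.5 CPM in SC (log2 ratio 1.04, interval 0.46 to 1.63). Of the 8 lower genes, Mt1 was at 249 CPM in 5-day and 449 CPM in SC (log2 ratio -0.85, interval -1.18 to -0.53), and the matricellular proteoglycan gene Spock2 at 120.1 CPM in 5-day and 211 CPM in SC (-0.82, interval -1.29 to -0.35). Of 261 Mt1 UMIs in unmixed SC pericytes 73 were in 1 cell. Msn, which encodes the cytoskeletal linker moesin, was at 147 CPM in 5-day and 265 CPM in SC and Sh3glb1, of membrane curvature, at 106 CPM in 5-day and 189 CPM in SC. Esyt2, of contacts between endoplasmic reticulum and plasma membrane, was at 57.99 CPM in 5-day and 124 CPM in SC. In SC endothelial cells Spock2 was at 2334 CPM, Mt1 at 1634 CPM, Sh3glb1 at 463 CPM, Esyt2 at 289 CPM and Msn at 285 CPM. Endothelial markers (16 genes) in unmixed pericytes summed to 4122 CPM in SC and 3668 CPM in 5-day. The part of endothelial RNA in these ratios was not tested. Ly6a, an endothelial gene, was at 55.9 CPM in 5-day and 244 CPM in SC, and 65 of its 151 UMIs in SC pericytes were in 1 cell. Ins2, an insulin gene, was at 18.6 CPM in 5-day and 209.7 CPM in SC, and here 110 of 122 UMIs in SC pericytes were in 1 cell. These genes are named because they passed in unmixed pericytes, a set defined after the data were seen.

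After 15 days 51 of 2768 genes were higher (1.84%) and 15 lower (0.542%), 2.38% in all, and without mixed barcodes 45 of 1841 were higher (2.44%) and 26 lower (1.41%), with 24 and 3 genes in both sets. Several of the higher genes moved alike in other cell types. Gstp1, a glutathione transferase, was at 148 CPM in 15-day and 37.1 CPM in SC pericytes, with 15-day over SC log2 ratios of 3.78 in endothelial cells and 3.61 in microglia. Gstp genes have near-identical copies, so reads shared between them make its level uncertain. Of the 51 higher genes, 31 had a ratio of at least 1.5 in endothelial cells too, 36 in microglia and 28 in both, and of the 15 lower genes 4, 5 and 4. The share of all genes with such ratios in those cells was not counted, so these counts have no background beside them.

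Among the other named higher genes were Ctla2a (217 CPM in 15-day and 62.9 CPM in SC), the adhesion receptor Adgrl4 (137 CPM in 15-day and 51.7 CPM in SC) and the sphingosine phosphate receptor S1pr1 (129.7 CPM in 15-day and 49.4 CPM in SC), which are endothelial genes. They went with an endothelial marker list of which 9 of 9 measured genes were higher in 15-day pericytes (median log2 ratio 0.45), 6 of 7 without mixed barcodes (0.38), beside -0.03 and -0.07 over all genes. With pericytes held to an endothelial sum of at most 2 UMIs the median of that list was -0.07, and without high doublet scores it was 1.08. The first of these limits removes barcodes by their endothelial counts, so the list's genes fall by construction in part and that median is a description. Slc4a4, a bicarbonate cotransporter, was at 232 CPM in 15-day and 80.9 CPM in SC pericytes. Bloc1s1 and Grcc10 had log2 ratios of 1.74 (interval 1.29 to 2.19) and 1.72 (interval 1.2 to 2.25), beside 2.26 and 2.25 in endothelial cells and 1.79 and 2.04 in microglia. Apod and Resp18 completed the set. The named lower genes included 4 haemoglobin genes, Cx3cr1 of microglia, Snhg11, and Vbp1 (38.4 CPM in 15-day and 98.8 CPM in SC), Ralgapa1 (47.5 CPM in 15-day and 112 CPM in SC) and Strn3 (69.4 CPM in 15-day and 133 CPM in SC).

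**Figure D4:**
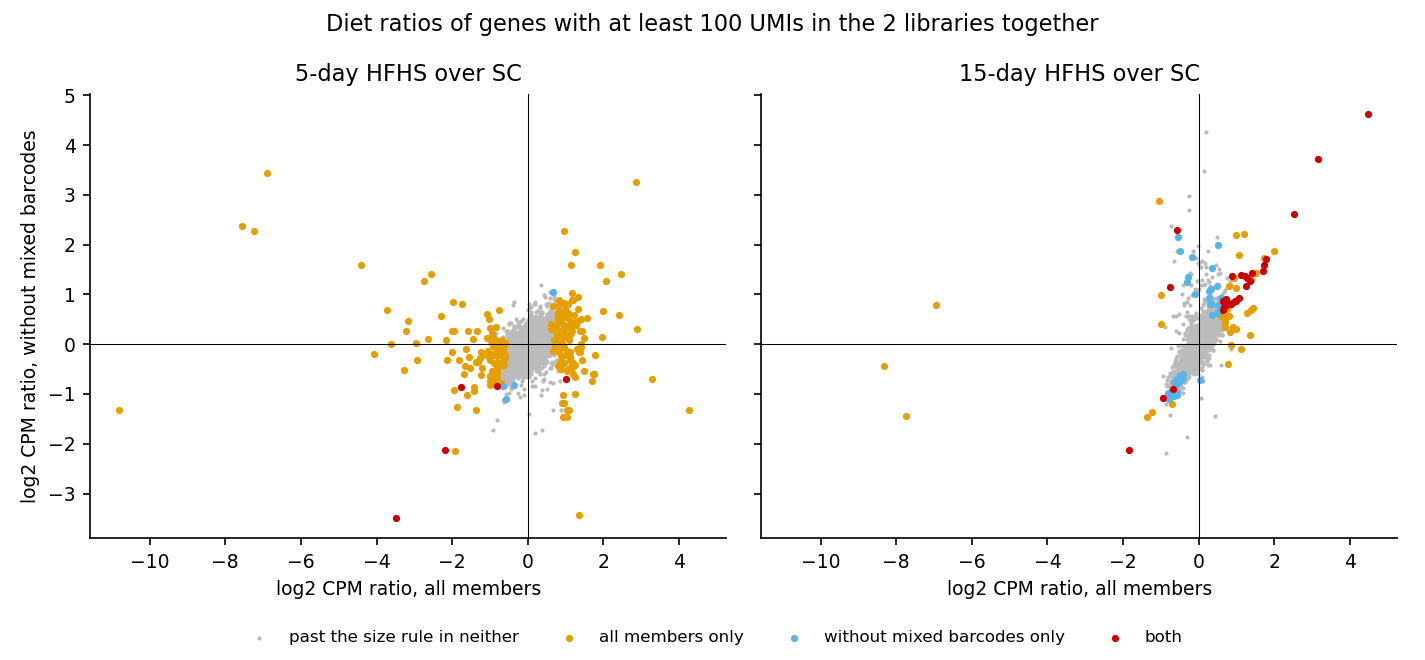
Each point is 1 gene that had 100 or more UMIs over the pair of libraries, with its log2 CPM ratio over SC in all pericytes on the horizontal axis and in pericytes without mixed barcodes on the vertical one, after 5 days (left) and 15 days (right) of HFHS diet. Colours mark genes past the size rule in neither set, in 1 of them or in both, and at 5 days the genes past it in all pericytes only spread widely along the horizontal axis.

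In unmixed pericytes the genes lower after 15 days included several that marked pericytes over endothelium. Aspn was at 428 CPM in 15-day and 669 CPM in SC (log2 ratio -0.64, interval -0.91 to -0.38), Slc19a1 at 537 CPM in 15-day and 858 CPM in SC (-0.67, interval -0.91 to -0.44), Slc6a20a at 565 CPM in 15-day and 854 CPM in SC (-0.60, interval -0.83 to -0.37) and Ggt5, a leukotriene-processing enzyme, at 271 CPM in 15-day and 442 CPM in SC (-0.70, interval -1.04 to -0.37). All 4 were lower in the 15-day library. Dmd, which encodes dystrophin, was at 405 CPM in 15-day and 682 CPM in SC, the lipid phosphatase Inpp4b at 339.6 CPM in 15-day and 539.8 CPM in SC, and Rhoa, a GTPase of the cytoskeleton, at 390.3 CPM in 15-day and 643 CPM in SC. Gatm, the first enzyme of creatine synthesis, was at 365 CPM in 15-day and 559 CPM in SC, and the chaperone Pdia3 at 332 CPM in 15-day and 554 CPM in SC. Pdia3 had log2 ratios of -0.74 in unmixed pericytes, -0.55 in endothelial cells and -0.71 in microglia, and Rhoa of -0.72, -0.50 and -0.54. Of the 26 lower genes of unmixed pericytes 2 differed by at least 1.5-fold in the same direction in endothelial cells, 6 in microglia and 1 in both. Of the 45 higher genes 18 did so in endothelial cells, 25 in microglia and 17 in both. For these counts, too, the share over all genes was not counted. Higher genes included the flow-responsive factor Klf2 (246 CPM in 15-day and 97.98 CPM in SC), the BMP target Id1 (226 CPM in 15-day and 127 CPM in SC), Crip1 (826 CPM in 15-day and 492 CPM in SC), Ndufa4 (218 CPM in 15-day and 84.2 CPM in SC) and the metallothionein Mt3 (859 CPM in 15-day and 217 CPM in SC). Cldn5, a gene of the rule, was at 558 CPM in 15-day and 230.3 CPM in SC. Id1 was more abundant in endothelial cells, at 1023 CPM in SC, and its 15-day over SC log2 ratio there was -0.36. Endothelial markers (16 genes) in unmixed pericytes summed to 4122 CPM in SC and 5699 CPM in 15-day. The part of endothelial RNA in the higher genes was not tested. These genes were named after their values were seen. Over all pericytes Slc6a20a was at 433 CPM in 15-day and 581 CPM in SC (log2 ratio -0.42, interval -0.65 to -0.20) and Aspn at 331 CPM in 15-day and 462 CPM in SC, and neither passed the size rule.

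No gene of the identity list passed the size rule in either comparison. After 5 days 21 of 30 measured genes were above SC (median log2 ratio 0.06), 15 of 30 without mixed barcodes (0.002), beside a median of 0.03 and -0.03 over all genes. The 5-day median was -0.31 with an endothelial sum of at most 2 UMIs, -0.13 without high doublet scores and 0.37 with at most 10% mitochondrial UMIs. After 15 days 10 of 30 were above SC (median -0.05), and 2 of 30 without mixed barcodes (-0.27, with 14 counting intervals wholly below 0 and none above), beside -0.03 and -0.07 over all genes. This median stayed below 0 under the 14 alternatives tried, from -0.27 without mixed barcodes to -0.0049 with a marker sum of at least 10. With that marker sum the median over all genes with enough UMIs for the size rule was -0.032. The identity median lay above it there, so a median below 0 was not always a drop relative to other genes. Pdgfrb was at 1629.5, 1791 and 1412 CPM and Rgs5 at 6845, 6221 and 5504 CPM in unmixed pericytes, both lowest in the 15-day library. The solute carriers listed for pericytes had 5 of 17 genes above SC at 15 days (median -0.14), and 4 of 16 without mixed barcodes (-0.42), with Slc6a20a, Slc19a1 and Ggt5 past the size rule downward. The 15-day pericytes also had the fewest UMIs per cell and the highest summed endothelial and astrocyte markers, and the part of depth and of free RNA in these shifts was not tested.

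**Figure D5:**
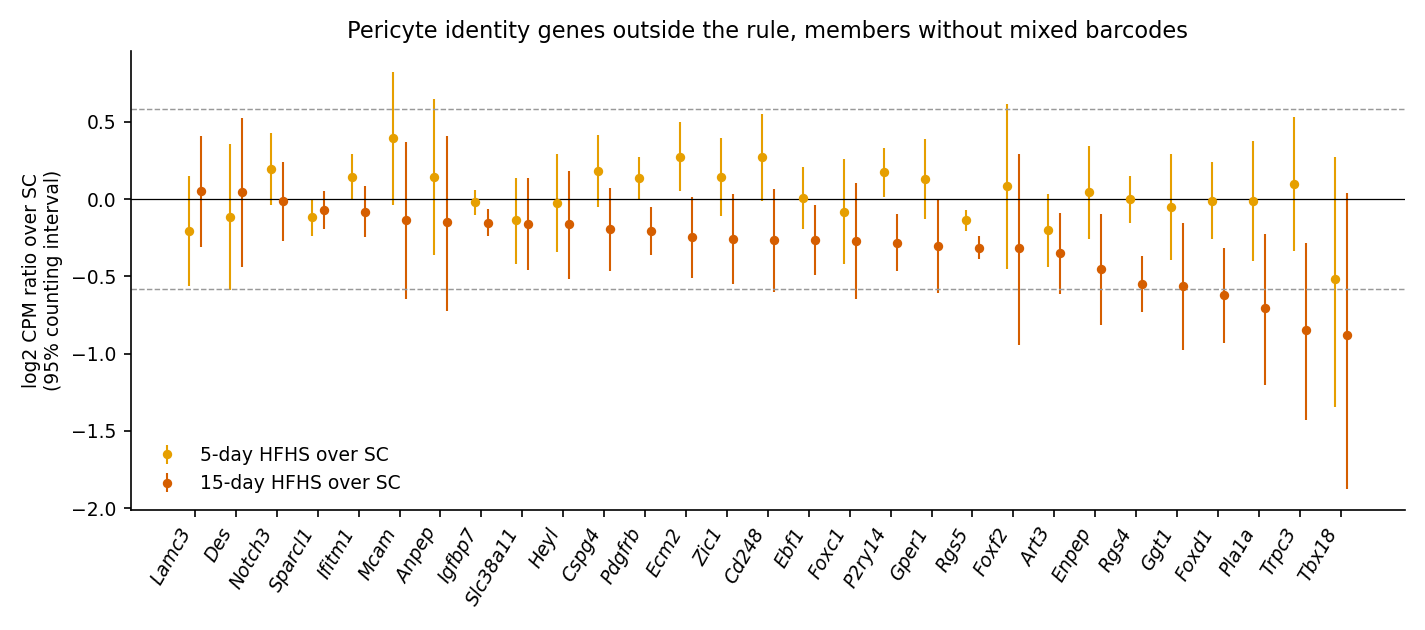
Log2 CPM ratio over SC of 29 pericyte identity genes in unmixed pericytes after 5 and 15 days of HFHS diet, with exact 95% intervals that cover counting error only. The 5-day values scatter around 0, and 27 of 29 of the 15-day values lie below 0, 13 of them with an interval wholly below it.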

How the data were processed

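Each deposited matrix gives unnormalised UMI counts, whole numbers per the file headers, made by the authors with Cell Ranger on GRCm38; SAMtools and Scanpy 1.4.4 are also named per the submitters' processing notes. Pericytes and gene lists were chosen with earlier results of these data known. Counts were summed per cell type and library and divided by the summed total (CPM). With 1 library per diet, no test was made between diets: ratios have exact 95% intervals for counting error, and UMIs of 1 pool of 6 mice cannot show differences between mice. Cell types were compared over 3 libraries with edgeR 4.0.16 (TMM, quasi-likelihood, library as block, Benjamini-Hochberg), with DESeq2 1.42.0 as an alternative; p-values measure the spread between pooled libraries. Doublets were scored with Scrublet in Scanpy 1.11.5 but kept, since removal was an alternative. Named genes were the 12 per direction with the largest fold change at 100 CPM or more in the higher cell type in every library, and up to 10 per direction and diet past the size rule that kept a ratio of 1.5 without the top cell of each library; gene models, ribosomal protein, mitochondrial and rule genes were not named by it, and list members with a known role were added. Other choices tried were thinning to 1000 UMIs, equal cell weights, other depth, mitochondrial, marker and UMI minimums, other scalings and 10% free RNA taken out; mixed barcodes and the narrower smooth muscle set were chosen after seeing the data. Scripts were tested on simulated data. At an assumed spread between libraries, edgeR recovered 12.0% of 2-fold and 89.1% of 4-fold changes against endothelial cells. Against smooth muscle by the rule it recovered 10% and 85%. A gene that did not pass can therefore still differ. Some genes that these rules name are not reported here.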

Additional observations from a re-analysis of the deposited data

Results flagged for a closer look

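For 4 genes the pericytes of the HFHS libraries moved to opposite sides of the SC library, past the size rule in both comparisons. Each diet had 1 library and both comparisons share SC, so the difference between 5 and 15 days was not tested. Snhg11 had a log2 ratio of 1.2 at 5 days and -0.99 at 15 days, and of -0.59 and 0.99 in unmixed pericytes. It is a long noncoding RNA of neurons. Ndufa4 had a log2 ratio of -0.81 at 5 days and 0.89 at 15 days, and of -0.02 and 1.37 in unmixed pericytes. It encodes a subunit associated with cytochrome c oxidase, and its pericyte levels were 169.6, 97.1 and 314 CPM. Chchd10 had a log2 ratio of -0.91 at 5 days and 0.69 at 15 days, and of -0.04 and 0.69 in unmixed pericytes. It encodes a protein of the mitochondrial intermembrane space. Slc1a3 had a log2 ratio of -1.43 at 5 days and 0.79 at 15 days, and of -0.87 and 0.75 in unmixed pericytes. It encodes the glutamate transporter of astrocytes and tanycytes, and astrocyte markers (12 genes) summed to 2018, 1022 and 2605 CPM over all pericytes.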

How the results depend on the processing

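The log2 ratio of the share of pericytes had an interval that included 0 under each alternative tried, from -0.17 to 0.004 for 5-day over SC, with the sign turned when cells were thinned to 1000 UMIs, and from -0.35 to -0.22 for 15-day over SC. No paired analysis was possible between the diets because each diet had 1 library, and leaving out a replicate was possible only in the cell type contrasts. There the main fits had the library as a replicate block, and without the block 1318 genes were higher and 1542 lower than in endothelium, and 2630 and 2861 against smooth muscle by the rule. Leaving out 1 library at a time gave 665 to 1174 genes higher and 808 to 1579 lower than in endothelium, fewest without SC, and 1891 to 2358 higher and 2314 to 2856 lower than in smooth muscle. Without mixed barcodes 2027 genes were higher than in endothelium, and 554 were higher and 661 lower than in smooth muscle. DESeq2 called 920 genes higher than in endothelium and 1369 higher than in smooth muscle, and smooth muscle cells with no larger marker sum gave 497 and 740. No named gene of the cell type contrasts changed direction where it was tested, but of the 23 named against smooth muscle by the rule 13 could be tested against the narrower set and 12 without mixed barcodes. Between diets, medians of gene lists moved by more than their standard error over genes in 237 of 840 recomputations. The minimums of 50 and 200 UMIs do not enter these medians, so the 60 recomputations under each of them could not move.

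The counts of genes past the size rule depended on the processing. For 5-day over SC they were 23 higher and 72 lower with every cell of equal weight, 9 and 46 without the top cell of each gene, 0 and 3 with cells thinned to 1000 UMIs, 46 and 75 with at most 10% mitochondrial UMIs, 273 and 177 with a minimum of 50 UMIs, 40 and 70 with a minimum of 200 UMIs and 1 and 8 without mixed barcodes. The lower count was 51 without high doublet scores and 41 with an endothelial sum of at most 2. For 15-day over SC the counts were 84 higher and 62 lower with equal weight, 10 and 5 when thinned, 83 and 23 without high doublet scores, 84 and 32 with a minimum of 50 UMIs and 24 and 9 with a minimum of 200 UMIs. The lower count was 26 with a marker sum of at least 10, 28 with an endothelial sum of at most 2, 30 with 10% free RNA taken out and 26 without mixed barcodes. Fewer UMIs per gene or a stricter minimum lower the counts by construction, and for the other settings the cause was not tested.

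Named log2 ratios that turned round did so mostly without mixed barcodes. At 5 days these were Gpr17 (-1.32), Ptprn (-0.22), Disp2 (-0.61), Pcdh7 (-0.61), Grin2b (-0.73), Hbb-bs (2.38), Hba-a1 (2.27), Hba-a2 (3.44), Crym (1.59), Thrsp (0.68), Nnat (0.0081), Mia (0.27) and S100a6 (0.48), and at 15 days Hbb-bs (0.78), Cx3cr1 (2.88) and Snhg11 (0.99). With equal weight Ptprn was at -0.46, Pcdh7 at -0.29, Grin2b at -0.33 and Mia at 0.84 at 5 days, and Cx3cr1 at 0.50 at 15 days. With at most 10% mitochondrial UMIs Ptprn was at -0.76, Disp2 at -1.07, Pcdh7 at -0.16 and Grin2b at -2.88 at 5 days. When thinned, Dnm3 was at -0.047 and Pcdh7 at -1.22 at 5 days, and Adgrl4 at -0.94 and Cx3cr1 at 2.20 at 15 days. With an endothelial sum of at most 2, Crym was at 0.85 and Thrsp at 0.36 at 5 days and Adgrl4 at -0.40 at 15 days, and without high doublet scores Cx3cr1 was at 3.91 at 15 days.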

Other observations

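Regulatory and metabolic lists not described in the comparisons were compared between pericytes and endothelium, where 10.3% of all genes were higher and 12.6% lower. Of 20 circadian clock genes tested 5 were higher and 1 lower in pericytes (edgeR's quasi-likelihood test, adjusted p below 0.05, as in the counts that follow). Nr1d1, a repressor of the clock loop, averaged 95.3 ± 17.03 CPM in pericytes and 38.1 ± 9.51 CPM in endothelial cells, and Dbp and Hlf, clock output factors, had log2 fold changes of 0.94 and 1.18. Of 20 immediate-early genes none was higher and 14 were lower in pericytes. Fos averaged 29.7 ± 11.5 CPM in pericytes and 86.6 ± 29.2 CPM in endothelial cells, Jun 98.96 ± 11.5 CPM in pericytes and 245 ± 8.93 CPM in endothelial cells, and the flow-responsive factor Klf4 21.5 ± 15.4 CPM in pericytes and 289 ± 44.1 CPM in endothelial cells. The tissue was dissociated with warm enzymes, and the part of that step in these levels was not tested. Of 22 glucocorticoid response genes 2 were higher and 12 lower, with Tsc22d3 at 104 ± 23.4 CPM in pericytes and 357 ± 76.8 CPM in endothelial cells, while the glucocorticoid receptor gene Nr3c1 had a log2 fold change of -0.48. Of 22 hypoxia response genes 2 were higher and 11 lower, with Ndufa4l2 higher in pericytes.

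Among fuel genes, of 22 genes of glycolysis and lactate 3 were higher and 4 lower, of 28 of fatty acid uptake and oxidation 1 was higher and 5 lower, and of 29 of cholesterol synthesis 1 was higher and 2 lower. Without mixed barcodes 3 of 19 glycolysis genes were higher and 7 lower, 5 of 26 fatty acid genes higher and 8 lower and 1 of 26 cholesterol genes higher and 4 lower, in a fit where 19.4% of all genes were higher and 41.5% passed in either direction. In the smooth muscle contrast of unmixed cells, 6 of 18 endoplasmic reticulum chaperone genes were higher and none lower in pericytes, beside 10.9% higher over all genes, and Pdia3 had a log2 fold change of 0.84. In unmixed pericytes 1 of 15 measured genes of that list was above SC after 15 days (median log2 ratio -0.29, beside -0.07 over all genes).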
